A study of Mus musculus with 10 samples.

Results

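The family of miR-192, miR-194 and miR-215 is described here across the 10 arrays of a mouse miRNA microarray series. Its members were taken as every mature miRNA on the array whose name carries the stem miR-192, miR-194 (with copy number 1 or 2) or miR-215, from either arm of the hairpin, which gave 7 of the 1892 mouse miRNAs on the array. Each miRNA has 2 spots per array, and both were read separately before they were averaged. The series compares 5 arrays labelled T-C cell with 5 labelled control cell, each hybridised with RNA that started from 1 µg of total RNA, tailed with poly(A) and stained with Cy3.

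The labels give the T-C cell arrays the source Col-/- and the control cell arrays the source Control Col. All 10 samples are labelled sle liver and male, and a liver cell culture protocol is named for both groups. The treatment field, which all samples share, gives 0.5 mg of TN-CF to 100000 T-C cells in a dish over 24 h, "and control", and the design line of the series writes the agent as TB-CF. The sources used here do not say what T-C, TN-CF, TB-CF, Col and sle stand for, or how old the animals were. No label says which arrays received the agent. If only the T-C cell arrays did, its effect cannot be told apart from that of the source. Samples carry the numbers 1 to 5 within a group, and no label says that these are different mice or dishes; each p-value therefore rests on a sample-to-sample spread that could be purely technical.

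MicroRNAs are cut as short duplexes from hairpin precursors. One arm of the duplex, the guide, is loaded into an Argonaute protein and pairs with target messages mainly through its seed, here bases 2 to 8, while the other arm, the passenger, is mostly degraded. miR-192, miR-194 and miR-215 are transcribed as clusters and are known as abundant miRNAs of the intestinal epithelium, liver and kidney. All 3 are known to be induced by p53. The 5p arms are the usual guide strands.

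The sequences of the 7 members are given 5′ to 3′, as RNA, with the seed in capitals, because the shared seed and the shared 5p arm decide what the array can tell apart. All 7 array sequences equalled the RefSeq mature sequences (build GRCm38.p6).
mmu-miR-192-5p: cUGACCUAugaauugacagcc
mmu-miR-215-5p: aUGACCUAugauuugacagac
mmu-miR-194-5p: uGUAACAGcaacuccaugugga
mmu-miR-192-3p: cUGCCAAUuccauaggucacag
mmu-miR-215-3p: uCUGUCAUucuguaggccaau
mmu-miR-194-1-3p: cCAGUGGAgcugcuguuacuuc
mmu-miR-194-2-3p: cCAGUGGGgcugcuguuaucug

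miR-192-5p and miR-215-5p carry the same seed, UGACCUA, and no other miRNA on the array carries it. They are identical at 18 of 21 positions and differ by C1A, A12U and C20A, with positions counted from the 5′ end and the base of miR-192-5p written first. miR-194-5p has a seed of its own on the array. The 2 passenger strands of miR-194 are identical at 18 of 22 positions and differ by A8G, C19U, U20C and C22G, with the base of miR-194-1-3p first. The first of these lies in the seed, so the 2 passenger strands have different seeds. The seed of miR-194-2-3p is carried by 3 miRNAs on the array, and those of miR-192-3p, miR-215-3p and miR-194-1-3p by no other. How far probes of miRNAs as alike as miR-192-5p and miR-215-5p cross-hybridise was not tested.

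The members come from 4 hairpins in 2 clusters. On chromosome 1 of GRCm38.p6, Mir194-1 (chr1:185313319-185313385, plus strand) lies 195 bases before Mir215 (chr1:185313581-185313692, plus strand). Both lie inside the antisense long non-coding RNA gene 2010103J01Rik, where Mir215 overlaps an exon (185313530 to 185313803) and Mir194-1 overlaps none, and both lie within Iars2, a mitochondrial isoleucyl-tRNA synthetase gene on the minus strand. On chromosome 19, Mir194-2 (chr19:6264643-6264728, plus strand) lies 115 bases before Mir192 (chr19:6264844-6264932, plus strand). The chromosome 19 pair overlaps no other gene of the GENCODE M21 annotation, and the nearest is Atg2a, 2308 bases from Mir194-2. The 2 miR-194 hairpins are shown because their 5p arms, the first stretch of capitals, are the same, while their 3p arms, the second stretch, are not. The miR-194-5p spots therefore read both clusters together, and among the miR-194 strands only miR-194-1-3p and miR-194-2-3p name one cluster.
Mir194-1: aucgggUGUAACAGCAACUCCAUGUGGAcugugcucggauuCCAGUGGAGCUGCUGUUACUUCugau
Mir194-2: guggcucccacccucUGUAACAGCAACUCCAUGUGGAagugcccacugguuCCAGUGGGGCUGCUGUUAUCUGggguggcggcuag

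**Figure D1:**
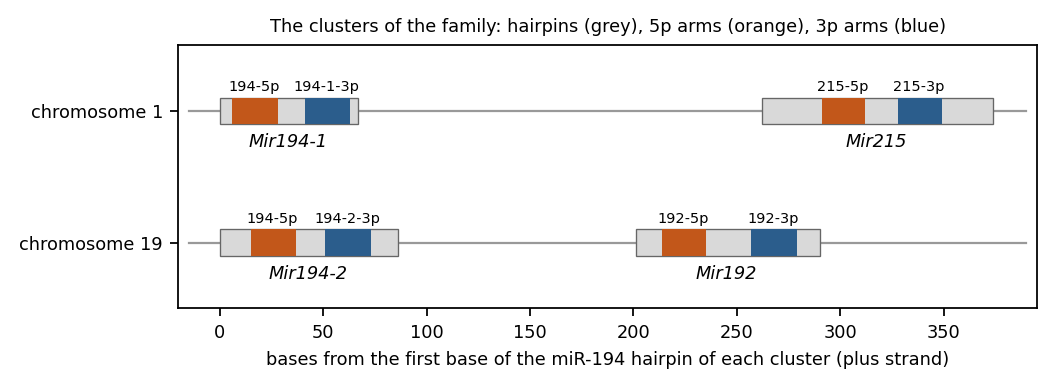
Map of the clusters on chromosome 1 and chromosome 19, with distance in bases from the first base of the miR-194 hairpin on the horizontal axis, hairpins in grey, 5p arms in orange and 3p arms in blue. Each cluster holds a miR-194 hairpin followed on the same strand by a partner, Mir215 after 195 bases or Mir192 after 115 bases.

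The values are spot intensities on a linear scale. Detection on an array required a spot average of more than the blank mean plus 3 SD, taken over 16 blanks, a limit that ran from 64.0 (control cell 5) to 474 (T-C cell 3). For the test, log2(intensity + 50) was taken of each spot, these values were averaged over both spots, and cyclic loess was applied. The limma fit covered the 476 miRNAs detected on at least 5 of the 10 arrays. Benjamini-Hochberg adjustment ran over all 476, with a threshold of 0.05. A difference is the T-C cell mean less the control cell mean on that log2 scale, which understates the change of dim miRNAs. T-C cell 1 stood apart from the other arrays: 14 of the 476 miRNAs lay more than 1 log2 unit above their highest value on the other 9 arrays, and 19 lay that far below their lowest, against at most 2 and 4 on any other array. Its weight in the differences and correlations is given by values without it.

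miR-192-5p and miR-194-5p were among the brightest miRNAs of the array in every sample by the mean of the spots. Ranked by brightness among 1892 miRNAs, miR-192-5p held a median rank of 8 (range 4 to 21) and miR-194-5p of 8.5 (4 to 16). miR-215-5p followed at a median rank of 62 (11 to 119). All 3 guide strands and miR-192-3p were detected on all 10 arrays, miR-215-3p on 7, miR-194-2-3p on 5 and miR-194-1-3p on 4. The passenger strands were dim, with median ranks from 269.5 (miR-192-3p) to 546 (miR-194-1-3p). Brightness also depends on how well each probe binds, so these ranks order spots and not molecules.

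The hepatocyte marker miR-122, the most abundant miRNA of hepatocytes, was near the background although the guide strands of the family were bright. Both arms of miR-122 were detected on 1 of 10 arrays each, and miR-122-5p lay between 57.8 and 193 against 9933 to 18241 for miR-192-5p outside control cell 1. The array that detected miR-122-5p was T-C cell 1, with 137 against a limit of 133. A marker of hepatocytes was thus dim in samples labelled liver, although 6 of the 10 listed liver-enriched miRNAs passed the detection filter. How well the miR-122 probes bind was not tested. Of the 11 listed miRNAs of gut and kidney epithelium 9 passed it, beside 25.2% of all miRNAs on the array, with miR-200b-3p at 5794 to 12729. The muscle and fibroblast miRNAs miR-143-3p (10434 to 23278) and miR-145a-5p (15029 to 27162) were also bright. The arrays measured bulk RNA, in which fewer cells of a type and less RNA per cell cannot be told apart.

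No member of the family passed the test for a difference between the groups. None of the 6 tested members passed the limma adjusted threshold, and none had an unadjusted p under 0.05. At least 1 member had an unadjusted p under 0.05 in 7 of 24 alternative settings, but none passed after adjustment. Without T-C cell 5 the unadjusted limma p was 0.0121 for miR-215-3p and 0.0195 for miR-215-5p. Over all tested miRNAs 37 of 476 passed, a background of 7.77%, with 7 higher and 30 lower in the T-C cell group, and 87 of 476 (18.3%) had an unadjusted p under 0.05. The median difference of the 6 members was 0.28, beside 0.019 over all tested miRNAs, and 5 of the 6 differences were above 0, beside 52.9% of all tested. Both figures include miR-192-5p at 0.47, a value that depends on 1 dim spot. From the second spot alone miR-192-5p was -0.13, and miR-192-3p moved from -0.0076 to 0.0044. None of the 6 had groups that did not overlap, beside 18 of 476 (3.78%). The seventh member, miR-194-1-3p, was detected on too few arrays to be tested.

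The intensity of mmu-miR-192-5p, the guide strand of Mir192, lay between 9933 and 18241 on 9 of the 10 arrays. Its second spot read 13623, 13549, 12839, 14019 and 10426 on T-C cell 1 to 5, and 15049, 10833, 11878, 18316 and 14904 on control cell 1 to 5. The groups overlapped, with a control array brightest and a T-C cell array dimmest. Its first spot read 11376, 11282, 13170, 13164 and 9440 in the T-C cell group and 167, 9897, 11945, 18165 and 12986 in the control group. The first spot of control cell 1 thus lay near the detection limit of 162 on an array whose other miR-192-5p spot was brighter than those of 8 of the 9 other arrays.

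That gap of 6.12 log2 units between the spots of miR-192-5p ranked 1 of the 1892 gaps on control cell 1, where 13 miRNAs had a gap over 1. The largest gap of any miRNA on the other 9 arrays was 2.83. On those arrays the spots of miR-192-5p differed by at most 0.26 log2 units. The dim spot lies in row 26 and column 3 of the array, and the bright one in row 41 and column 18.

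The estimate for miR-192-5p followed that spot. With the mean of both spots its level was 13.52 ± 0.18 in the T-C cell group and 13.06 ± 1.40 in the control group (SD, n = 5 each), a limma difference of 0.47 (SE 0.53, 95% interval -0.68 to 1.61, adjusted p = 0.731). From the second spot alone the levels were 13.62 ± 0.16 and 13.76 ± 0.24 (SD, n = 5 each) and the difference was -0.13 (SE 0.14, interval -0.45 to 0.18, limma adjusted p = 0.711). From the first spot alone it was 1.09 (SE 1.01), and without control cell 1 it was -0.17 (SE 0.17). No direction can be given for miR-192-5p, and the second-spot interval runs from 0.733 to 1.13 times the control level.

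**Figure D2:**
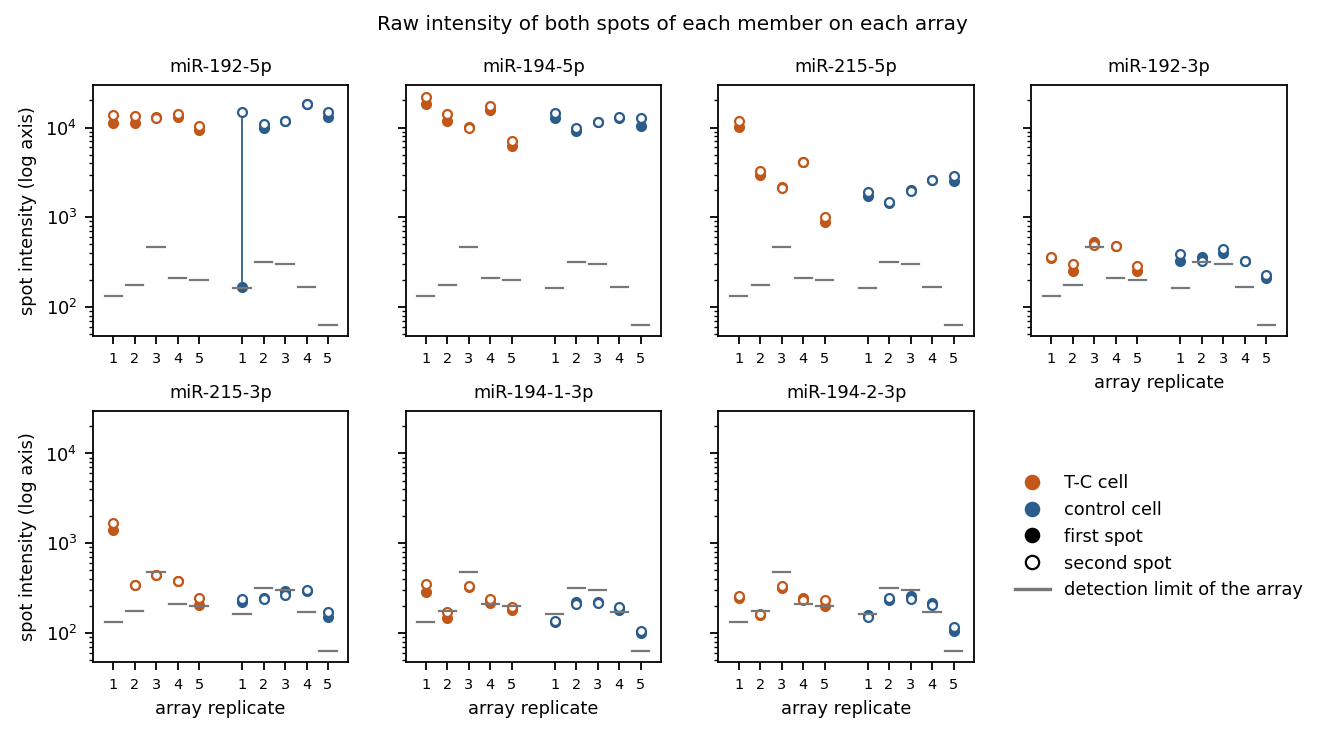
Raw intensity of each member (log axis) on each array, with T-C cell arrays in orange on the left and control cell arrays in blue on the right of each panel; filled circles are first spots, open circles second spots, and grey bars the detection limit of the array. The spots of miR-192-5p on control cell 1 are 6.12 log2 units apart, and miR-215-5p and miR-215-3p are highest on T-C cell 1.

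mmu-miR-194-5p, the guide strand of both miR-194 hairpins, spread more widely over the T-C cell arrays than over the controls. Its mean of spots was 20165, 12983, 10116, 16617 and 6697 on T-C cell 1 to 5, and 13614, 9576, 11508, 12922 and 11599 on control cell 1 to 5. The brightest and the dimmest of the 10 values were both in the T-C cell group, on arrays 1 and 5, and the spots of each array were within 0.28 log2 units. The normalized levels were 13.55 ± 0.47 and 13.45 ± 0.14 (SD, n = 5 each). The limma difference was 0.10 (SE 0.21, interval -0.36 to 0.56, adjusted p = 0.875), and without T-C cell 1 it was -0.036 (SE 0.16).

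mmu-miR-215-5p, which shares its seed with miR-192-5p, varied most among the guide strands in the T-C cell group. Its mean of spots was 11021, 3125, 2141, 4151 and 959 on T-C cell 1 to 5, and 1806, 1468, 1990, 2602 and 2729 on control cell 1 to 5. T-C cell 1 and 5 again held the extremes, and both spots showed it, with 10216 and 11825 on T-C cell 1 and 896 and 1022 on T-C cell 5. After normalization 3 T-C cell arrays lay above all controls and 1 lay below all of them. The levels were 11.57 ± 1.03 and 11.04 ± 0.36 (SD, n = 5 each), and the limma difference was 0.53 (SE 0.41, interval -0.37 to 1.43, adjusted p = 0.610). Without T-C cell 1 the difference was 0.19 (SE 0.32), and without T-C cell 5 it was 0.89.

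The SD of miR-215-5p within the T-C cell group, 1.03, ranked 21 among the 476 tested miRNAs, whose median SD there was 0.33. That of miR-215-3p, 0.81, ranked 34. Without T-C cell 1 these SDs were 0.75 for miR-215-5p and 0.38 for miR-215-3p. In the control group their SDs were 0.36 (rank 96) and 0.21, beside a median of 0.20. For miR-192-5p the order was the other way round, with an SD of 0.18 (rank 408) in the T-C cell group and of 1.40 (rank 2) in the control group, where the dim spot lies.

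mmu-miR-215-3p, the passenger strand of Mir215, had the smallest p of the family. Its mean of spots was 1544, 342, 447, 382 and 224 on T-C cell 1 to 5, and 233, 244, 281, 298 and 161 on control cell 1 to 5. In raw intensity 4 of the 5 T-C cell arrays lay above all controls, and T-C cell 5 lay among them. T-C cell 3, at 447, was still below its own detection limit of 474. The normalized levels were 8.99 ± 0.81 and 8.30 ± 0.21 (SD, n = 5 each), and the limma difference was 0.68 (SE 0.33, interval -0.025 to 1.39, adjusted p = 0.300), which ranked 91 of 476 by p.

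From the second spot alone the difference of miR-215-3p was 0.72 (SE 0.32, interval 0.020 to 1.42), with an unadjusted limma p of 0.0448 and an adjusted p of 0.237. On raw log2 values the difference was 0.84, with a two-sided exact permutation p of 0.0476 in 1 of 7 such tests, where 252 splits allow a smallest p of 0.00794. The other 6 members had exact permutation p-values of 0.111 or more on raw values. Without T-C cell 1 the difference of miR-215-3p was 0.32 (SE 0.18, limma unadjusted p = 0.093). The higher T-C cell level of miR-215-3p thus did not pass once all tested miRNAs were counted.

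The other passenger strands were dim. miR-192-3p, detected on every array, read 357, 278, 512, 480 and 271 on T-C cell 1 to 5, and 359, 343, 421, 329 and 221 on control cell 1 to 5. The groups overlapped, although T-C cell 3 and 4 lay above all controls in raw intensity. After normalization 1 T-C cell array lay above all controls and 1 lay below all of them. The limma difference was -0.0076 (SE 0.20, interval -0.44 to 0.42, adjusted p = 0.987). miR-194-2-3p ran from 163 to 327 in the T-C cell group and from 112 to 251 in the control group, with a limma difference of 0.092 (SE 0.078, interval -0.079 to 0.26, adjusted p = 0.645). miR-194-1-3p, the passenger strand of the chromosome 1 copy, ran from 160 to 330 and from 103 to 218. Its normalized levels were 8.14 ± 0.26 and 7.90 ± 0.049 (SD, n = 5 each), with 4 T-C cell arrays above all controls. T-C cell 5, at 7.829, lay just below the lowest control at 7.831, and its raw value of 190 was within the control range. On T-C cell 2, 3 and 5 and control cell 1, 2 and 3 miR-194-1-3p was under the detection limit, so part of this order is among values near the floor. The intervals of miR-192-3p and miR-194-2-3p do not exclude differences that lie inside them, and miR-194-1-3p was not tested.

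**Figure D3:**
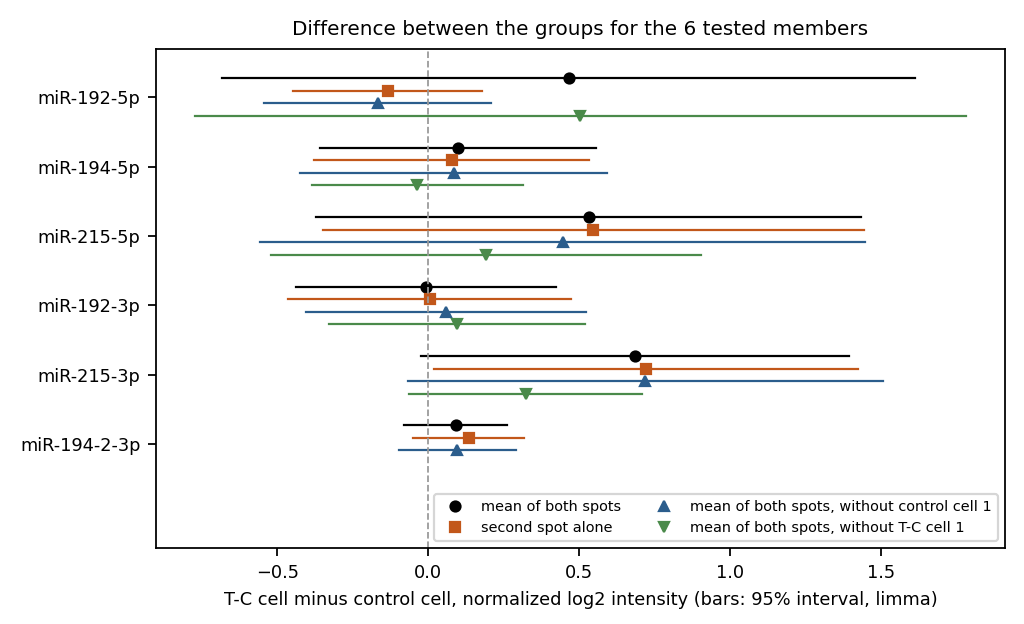
Difference between the groups, T-C cell minus control cell, in normalized log2 intensity for the 6 tested members, as points with 95% intervals from limma. The intervals from the mean of both spots all include 0, the miR-192-5p estimate moves from 0.47 to -0.13 when the second spot alone is used, and miR-194-2-3p has no value without T-C cell 1 because too few arrays detect it.

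The brightness of miR-215-5p relative to miR-192-5p, which shares its seed, was highest on T-C cell 1. These are ratios of different probes, to be compared between arrays and not read as shares of molecules. Taken from the second spots, miR-215-5p was 86.8%, 24.2%, 16.6%, 29.7% and 9.8% as bright as miR-192-5p on T-C cell 1 to 5, and 12.6%, 13.6%, 16.4%, 14.3% and 19.4% on control cell 1 to 5. Of the T-C cell arrays, 1, 2 and 4 lay above the control range, 3 within it and 5 below it. miR-194-5p was 162%, 104%, 77.8%, 125% and 68.3% as bright as miR-192-5p in the T-C cell group and 97.1%, 92.2%, 96.5%, 72.2% and 85.4% in the control group. T-C cell 1 and 4 led both sets and T-C cell 5 was the lowest of each.

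None of 7 within-array log2 ratios between members passed a test between the groups. From the second spots, miR-192-5p minus miR-215-5p was 1.98 ± 1.01 in the T-C cell group and 2.66 ± 0.27 in the control group (SD, n = 5 each; two-sided exact permutation p = 0.190, adjusted over the 7 ratios 0.444). miR-215-5p minus miR-194-5p was -2.01 ± 0.55 and -2.48 ± 0.35 (SD, n = 5 each), with an exact permutation p of 0.159 (adjusted 0.444). Both are guide strands of the chromosome 1 cluster, but miR-194-5p is read from both clusters. From the mean of both spots the smallest adjusted exact permutation p was 0.917.

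**Figure D4:**
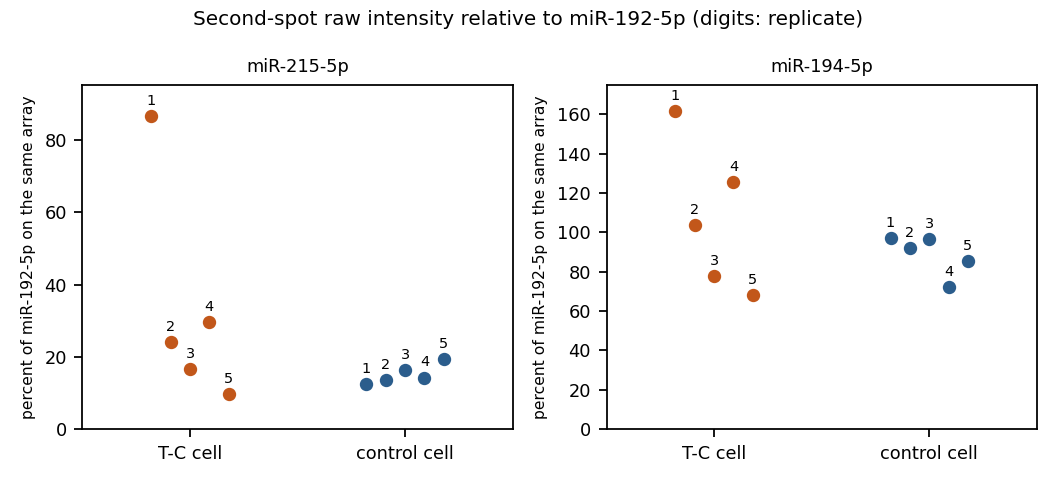
Second-spot intensity of miR-215-5p (left) and miR-194-5p (right) as a percentage of miR-192-5p on the same array, 1 point per array with its replicate number. T-C cell 1 reaches 86.8% for miR-215-5p, while the 5 control arrays lie between 12.6% and 19.4%.

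The members of the chromosome 1 cluster, with miR-194-5p read from both clusters, correlated with each other across the arrays. Over 10 arrays the normalized level of miR-194-5p correlated with that of miR-215-5p at r = 0.89 (permutation p = 0.00283, adjusted over 9 pairs 0.0108) and Spearman rho = 0.78 (permutation p = 0.0112, adjusted 0.0252). miR-215-3p correlated with miR-194-1-3p at r = 0.97 (permutation p = 0.00018, adjusted 0.00162) and rho = 0.94 (p = 0.00023, adjusted 0.00207). The arms of Mir215 correlated at r = 0.86 (permutation p = 0.0048, adjusted 0.0108) with rho = 0.70 (p = 0.0306, adjusted 0.0552), and without T-C cell 1 that r was 0.68 (permutation adjusted p = 0.0827). miR-194-5p and its chromosome 1 passenger miR-194-1-3p correlated at r = 0.88 (permutation p = 0.00382, adjusted 0.0108) and rho = 0.81 (p = 0.00751, adjusted 0.0225), and r was 0.18 without normalization and 0.73 (permutation adjusted p = 0.0695) from the second spots. The points share arrays, and the dim members share each array's background.

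Of those relations, 3 were weaker without T-C cell 1 and 5. Without T-C cell 1 and 5, the arrays farthest from the median of miR-194-5p, the r of miR-194-5p with miR-215-5p was 0.28, that of miR-194-5p with miR-194-1-3p was 0.41 and that of the arms of Mir215 was 0.49. With the group means removed, the first was 0.90 over all arrays (permutation adjusted p = 0.0196) and 0.22 without those 2. The second was then 0.97 (permutation adjusted p = 0.0027) and 0.69, and the last was 0.84 (adjusted p = 0.0301) and -0.13. The relation of miR-215-3p with miR-194-1-3p was 0.82 without T-C cell 1 and 3, the 2 arrays farthest from its own median, and with the group means removed it was 0.54 without T-C cell 1 and 5. A correlation within each group of 5 arrays was not computed, since it would rest on fewer than 6 samples.

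miR-192-5p did not correlate with miR-194-5p, which is read from both clusters, and the dim chromosome 19 members gave values that depended on the setting. miR-192-5p correlated with miR-194-5p at r = 0.0074 (permutation p = 0.966, adjusted 0.966) and rho = 0.042 from the mean of both spots, and at r = 0.16 (permutation p = 0.542, adjusted 0.697) and rho = 0.030 (p = 0.946) from the second spot alone. Without control cell 4 and T-C cell 4, the 2 arrays farthest from its median, the second-spot value was 0.39. miR-192-5p with miR-215-5p gave r = 0.25 (permutation p = 0.346, adjusted 0.445) and rho = 0.18 (p = 0.632, adjusted 0.711) from both spots. The arms of Mir192 gave r = -0.27 (permutation p = 0.488, adjusted 0.549) and rho = -0.35 (p = 0.334, adjusted 0.501). miR-194-5p with miR-194-2-3p gave r = 0.68 (permutation p = 0.0428, adjusted 0.0771) with rho = 0.81 (p = 0.0074, adjusted 0.0225), and r was 0.64 without T-C cell 1 and 5 but 0.10 from the second spots. It passed with the group means removed (0.71, permutation adjusted p = 0.0301) and from the first spots (0.80, adjusted p = 0.0116). The last of the 9 pairs, miR-192-3p with miR-194-2-3p, gave r = 0.39 (permutation p = 0.272, adjusted 0.407) and rho = 0.27 (p = 0.449, adjusted 0.577). It passed without T-C cell 1, where r was 0.79 (permutation adjusted p = 0.0337), and without normalization (0.80, adjusted p = 0.0255). Whether the chromosome 1 correlations differ from the chromosome 19 ones was not tested.

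**Figure D5:**
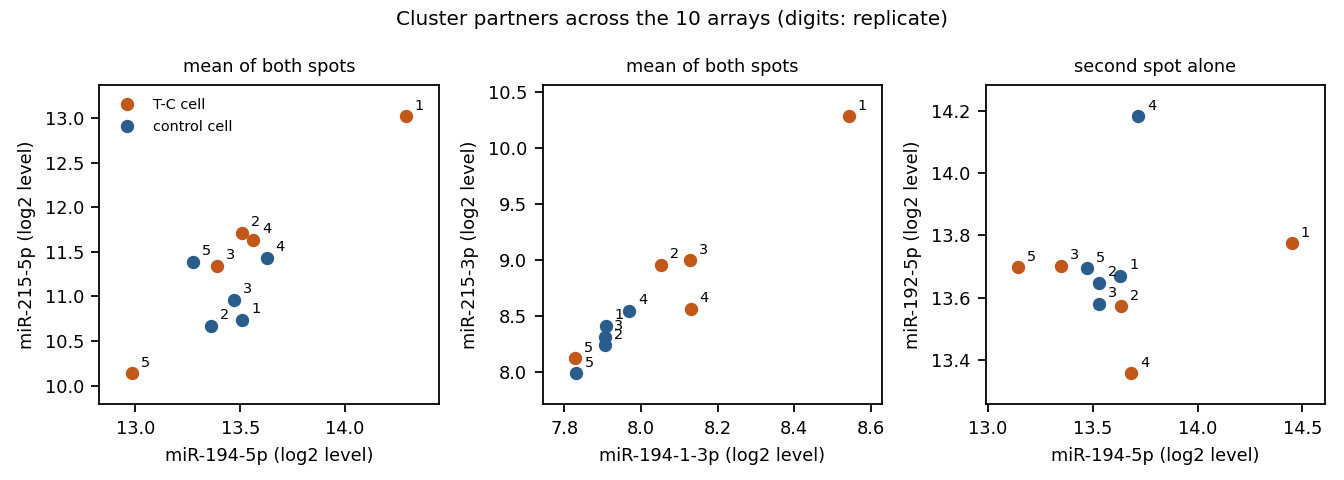
Normalized log2 levels of partner miRNAs on the 10 arrays, 1 point per array with its replicate number, T-C cell in orange and control cell in blue. miR-215-5p against miR-194-5p (r = 0.89) and miR-215-3p against miR-194-1-3p (r = 0.97) have T-C cell 1 at the upper right, and miR-192-5p against miR-194-5p from the second spots (r = 0.16) shows no line.

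Among all tested miRNAs, the guide strands of miR-194 and miR-215 were each other's nearest neighbour when T-C cell 1 was included. Ranked by r over the 10 arrays, miR-215-5p was 1 of 475 for miR-194-5p and miR-194-5p was 1 of 475 for miR-215-5p. For miR-194-5p the next were miR-215-3p (0.87) and miR-6240 (0.85), and for miR-215-5p they were miR-215-3p (0.86) and miR-10a-5p (0.82). The median r over all tested miRNAs was -0.046 for miR-194-5p. For miR-192-5p the most alike were miR-125b-5p (0.80), miR-669f-5p (0.77) and miR-30a-5p (0.73) from both spots, and miR-6988-3p (0.73), miR-26a-5p (0.73) and miR-468-3p (0.69) from the second spot, so none of the 3 recurred. Without T-C cell 1, miR-215-5p ranked 6 for miR-194-5p, behind miR-378c (0.91), miR-378a-3p (0.87) and miR-30e-5p (0.86) among others. miR-194-5p then ranked 3 for miR-215-5p, behind miR-30b-5p (0.91) and miR-30e-5p (0.80). These ranks describe 10 or 9 arrays and carry no test.

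On T-C cell 1, where miR-215-5p lay 1.31 and miR-215-3p 1.29 log2 units above their highest values elsewhere, miR-194-5p lay 0.66 above and miR-192-5p ranked 3 of 10. Other miRNAs stood out on the same array. miR-31-5p, an epithelial miRNA, read 2785 there and 78.5 to 432 elsewhere. miR-802-5p, known from liver, pancreas and intestine, read 774 there and 60.0 to 186 elsewhere, and miR-6240 read 4956 there and 175 to 620 elsewhere. The summed intensity of the 6 haematopoietic markers was 6222 on T-C cell 1, 3071 to 5825 on the other T-C cell arrays and 2354 to 3212 on the controls, and 1 of the 5 tested, miR-150-5p, passed the test. The epithelial list summed to 31774 on T-C cell 1, which ranked 7 of the 10 arrays. The hepatocyte markers summed to 213 there, also rank 7, but raw sums this dim follow the background of each array. After normalization miR-122-5p was highest on T-C cell 1, at 8.10 against 7.31 to 7.43 on the other arrays. The part of these differences in the miR-215 values was not tested.

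Lists of miRNAs known to accompany the family in tissue were read beside it. Of the 10 liver-enriched miRNAs 6 were tested and none passed, with a median difference of -0.0036; the smallest p-values were those of miR-378a-3p (-0.39, limma adjusted p = 0.476) and miR-30a-5p (0.28, adjusted p = 0.613). Of the 11 gut and kidney epithelial miRNAs 9 were tested and none passed, with a median of -0.21; miR-182-5p (-0.41, limma adjusted p = 0.267) and miR-375-3p (-0.51, adjusted p = 0.311) came closest. Of the 7 p53-induced miRNAs 5 were tested and 2 passed, beside the background of 7.77%, both lower in the T-C cell group: the difference was -1.48 ± 0.34 (SE) for miR-34c-3p and -1.15 ± 0.29 (SE) for miR-34b-3p, with limma adjusted p-values of 0.0400 and 0.0419. The median of that list was -0.32, beside 0.019 over all tested. The 5p arms of the same hairpins, miR-34b-5p and miR-34c-5p, were detected on 0 and 1 of 10 arrays and were not tested. The calls were not stable: miR-34b-3p passed in 12 and miR-34c-3p in 13 of 23 alternatives, and neither passed without T-C cell 1 (limma adjusted p = 0.067 for both).

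Whether miR-192-5p, miR-194-5p and miR-215-5p, which are p53-induced too, differ in their response from these strands of the miR-34 family was not tested. Among the haematopoietic markers, miR-150-5p of mature lymphocytes was higher in the T-C cell group (0.86 log2 units, SE 0.23; limma adjusted p = 0.0433), but it passed in 11 of 24 alternatives, and its adjusted p was 0.0839 without T-C cell 1. None of the 5 tested fibroblast and stellate cell markers passed, with summed intensities of 30246 to 56376 in the T-C cell group and 37469 to 44972 in the control group. The 1 tested endothelial marker, miR-126a-3p, did not pass either (-0.0056).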

How the data were processed

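The authors deposited 1 raw file per array. Per the file headers, its column of spot density medians holds intensity on a linear scale, and the labels name LC Sciences as the service provider. The second set of brightness columns held 0 filled values and was not used. The sources used here do not state image analysis settings or any background subtraction. Each array has 3968 spots, 16 of them blank, and detected 189 to 1314 miRNAs; the number of arrays, 5 per group, limits the precision.

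To each spot 50 was added and log2 was taken, then both spots of each miRNA were averaged and cyclic loess applied. The fit used limma 3.58.1 (R 4.3.3) with a trend and was tested on simulated data. Correlations used 100000 permutations, and 2-group tests of single values all 252 splits. Alternatives changed the normalization, offset, blanks, spots, filter, array weights, replicate block or arrays. A correlation of deviations between same-numbered arrays ran from -0.20 to 0.26, over 0.1 in 1 of 5 pairs, so the numbers were not used as pairs. The genes named are the 7 members, the 3 miRNAs most correlated with each guide strand, the list members that passed or else the 2 with the smallest p, and miR-122-5p; miR-31-5p, miR-802-5p, the neighbours without T-C cell 1, the bright epithelial and muscle miRNAs and the endothelial marker were named after their values were seen. The members and lists were chosen with earlier results of these data known. Sequences are from RefSeq (GRCm38.p6), in which all 7 members matched by name, and gene positions from GENCODE M21; the arrays themselves carry no coordinates.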

Additional observations from a re-analysis of the deposited data

Results flagged for a closer look

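In 28 sets of 5 arrays (7 members and 7 ratios in each group), 5 had 1 array far from the other 4 by Dixon's criterion. Chance alone marks about 1 in 20 of independent sets, and these sets share values. All of the 5 except that of miR-194-2-3p hold the same miR-192-5p value of control cell 1, so they are not separate events. miR-192-5p on control cell 1 had a normalized level of 10.61, with the next lowest control at 13.47. miR-194-2-3p on control cell 5 was 7.87, with the next at 8.05. The within-array log2 ratios that hold miR-192-5p were far from the rest on control cell 1: -2.90 to miR-194-5p, -0.13 to miR-215-5p and 1.67 to miR-192-3p. With the second spot alone the control ratios of miR-192-5p to miR-194-5p ran from 0.039 to 0.47. The cause of the dim spot was not tested.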

How the results depend on the processing

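No member passed the adjusted test under any of 24 alternatives, 1 of which, the second spot without T-C cell 1, was chosen after seeing the data. miR-215-5p (0.19 to 0.89), miR-215-3p (0.32 to 1.52) and miR-194-2-3p (0.038 to 0.49) stayed above 0 wherever they were tested. The number of all miRNAs called, 37, was 3 with blanks subtracted, 18 among those detected on all 10 arrays, 14 with median centring (1 higher, 13 lower), 47 with quantile normalization (14 higher, 33 lower), 1 without a filter, 11 in the added alternative and 1 to 44 with 1 array left out: 3, 1, 1 and 3 without control cell 1, 2, 3 and 5, 12 without T-C cell 1 and 2 without T-C cell 4. With a replicate block it was 22 and still no member passed (miR-215-3p adjusted p = 0.246). The median difference of all tested was 0.14 without normalization, against 0.019.

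Several differences near 0 changed sign. miR-192-5p was -0.061 with the brighter spot, -0.13 with the second spot, -0.14 in the added alternative and -0.17 to 0.73 with 1 array left out (raw -0.12 to 0.71). miR-194-5p was -0.086 with array weights, -0.031 with median centring, -0.088 in the added alternative and -0.036 to 0.26 with 1 array left out (raw -0.096 to 0.30). miR-192-3p was 0.068 with blanks subtracted, 0.035 with median centring, 0.14 without normalization, 0.012 with an offset of 200, 0.096 with quantile normalization, 0.0044 with the second spot, 0.14 in the added alternative and -0.14 to 0.095 with 1 array left out. Ratios changed sign too. That of miR-192-5p to miR-192-3p was -0.046 with the brighter spot, -0.14 with the second, -0.28 in the added alternative and -0.23 to 0.74 with 1 array left out; to miR-194-5p, in the same order, -0.21, -0.21, -0.052 and -0.25 to 0.59. That of miR-192-5p to miR-215-5p was 0.063 with blanks subtracted, 0.51 with the dimmer spot, 0.58 with the first and -0.61 to 0.31 with 1 array left out. That of miR-194-5p to miR-194-2-3p was -0.32 with blanks subtracted, -0.034 with the dimmer spot, -0.19 with median centring and without normalization, -0.058 with quantile normalization, -0.057 with the second spot, -0.21 in the added alternative and -0.10 to 0.14 with 1 array left out. That of miR-194-5p to miR-194-1-3p was 0.0048 with the first spot, and that of miR-215-5p to miR-215-3p was 0.0100 with an offset of 200 and -0.27 to 0.0034 with 1 array left out.

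The r of miR-194-5p with miR-215-5p no longer passed with quantile normalization (0.73) or in the added alternative (0.70), and ran from 0.80 to 0.92 with 1 array left out, missing the threshold without T-C cell 5 (0.85, permutation adjusted p = 0.0552). That of miR-215-3p with miR-194-1-3p passed in all 20 alternatives run for it (0.74 to 0.99). That of miR-192-5p with miR-194-5p was -0.030 with the dimmer spot, -0.0060 without normalization, -0.18 with quantile normalization, -0.0077 in the added alternative and -0.081 to 0.16 with 1 array left out; with miR-215-5p it was -0.0070 in the added alternative, and with miR-192-3p 0.067 with the brighter spot and with median centring. That of miR-194-5p with miR-194-2-3p was -0.027 without normalization and -0.044 in the added alternative, and passed with the first spot (0.80), median centring (0.81) and an offset of 200 (0.81). That of miR-192-3p with miR-194-2-3p passed with median centring (0.78), without normalization (0.80) and without T-C cell 1 (0.79). That of miR-194-5p with miR-194-1-3p no longer passed with blanks subtracted (0.59), quantile normalization (0.61), the second spot (0.73), no normalization (0.18) or in the added alternative (0.44), nor that of miR-215-5p with miR-215-3p without T-C cell 1 (0.68) or in the added alternative (0.61). Causes were not tested, apart from miR-192-5p, whose sign follows 1 spot of control cell 1. The passenger strands of miR-194 were under the detection limit on 5 or more arrays and that of miR-215 on 3, which bounds what those values can show.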
